A study of Mus musculus with 16 samples.

Results

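The 10 genes of the neutrophil programme described here were followed through mouse lungs given bleomycin and an inhibitor of the microRNA miR-199a-5p: S100a8 and S100a9, the granule genes Camp, Ngp, Ltf, Mmp8 and Ctsg, the secreted factor Retnlg, and the chemokine receptors Cxcr1 and Cxcr2. They were chosen by symbol, 10 of the 20863 genes with a named probe, and all 10 were measured. Earlier results of these data were known at that choice, so shares and medians set beside those of all genes are a description and not a test. Each gene was read from its probe with the highest mean over the 16 arrays. Camp had 2 probes and each of the other genes had 1.

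RNA of whole lung from C57BL/6 mice aged 9 to 12 weeks was labelled with Cy3 and measured on 1-colour Agilent arrays. Every animal received a locked nucleic acid oligonucleotide (LNA) at 5 mg/kg into the trachea, 4 and 2 days ahead of bleomycin or PBS and once more 4 days after it. The LNA was either LNA-miR-199a-5p, directed against that microRNA, or LNA-control. Bleomycin, which breaks DNA strands and is a common means of inducing lung injury and scarring in mice, was given at 1 unit/kg, also into the trachea. The groups were PBS with LNA-control (3 arrays), PBS with LNA-miR-199a-5p (3 arrays), bleomycin with LNA-control (5 arrays) and bleomycin with LNA-miR-199a-5p (5 arrays). No group went without an LNA, and neither the sex of the mice nor the day on which lungs were taken is given in the sources used here. The labels do not say that the replicates of a group are separate animals, so p-values measure the spread between these arrays, which may in part be technical. In whole lung RNA, fewer neutrophils and less RNA per neutrophil cannot be told apart.

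Neutrophils are short-lived leukocytes that carry ready-made antimicrobial proteins in granules laid down in sequence while the cells mature in the bone marrow. Azurophil granules, which hold proteases such as cathepsin G (Ctsg), are made first, specific granules with lactoferrin (Ltf), cathelicidin (Camp) and the neutrophilic granule protein Ngp follow, and gelatinase and secretory compartments come last. S100a8 and S100a9 form calprotectin, a calcium- and zinc-binding complex that makes up much of the neutrophil cytosol, while Cxcr2, with Cxcr1, is the receptor through which chemokines of the CXC family draw neutrophils into tissue. A lung also holds neutrophils inside its capillaries, and several of these genes are transcribed chiefly in immature cells.

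The microRNA that the inhibitor was directed against is shown with its seed, bases 2 to 8, in capitals. The same mature sequence comes from Mir199a-1 (chr9:21496537-21496559, minus strand) and Mir199a-2 (chr1:162217844-162217866, plus strand) in RefSeq on GRCm38.p6.
miR-199a-5p: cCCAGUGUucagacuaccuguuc

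Promoters of 6 of the genes are shown because they form pairs of related genes whose values are set side by side in the results. Each run is the 150 bases before the annotated start, 5′ to 3′ on the strand of the gene, from RefSeq on GRCm38.p6, with motif matches in capitals. S100a8 lies at chr3:90668921-90669070 (plus strand), S100a9 at chr3:90695722-90695871 (minus), Camp at chr9:109849457-109849606 (minus), Ngp at chr9:110419658-110419807 (plus), Cxcr1 at chr1:74194632-74194781 (minus) and Cxcr2 at chr1:74153844-74153993 (plus).
S100a8: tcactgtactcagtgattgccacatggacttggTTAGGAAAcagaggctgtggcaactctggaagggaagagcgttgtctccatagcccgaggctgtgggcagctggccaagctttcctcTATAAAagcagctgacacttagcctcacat
S100a9: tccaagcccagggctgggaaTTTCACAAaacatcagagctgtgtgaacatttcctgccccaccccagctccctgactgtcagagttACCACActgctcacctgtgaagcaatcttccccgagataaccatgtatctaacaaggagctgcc
Camp: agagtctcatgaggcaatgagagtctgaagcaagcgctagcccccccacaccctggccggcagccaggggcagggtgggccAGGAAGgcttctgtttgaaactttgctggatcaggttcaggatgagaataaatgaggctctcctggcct
Ngp: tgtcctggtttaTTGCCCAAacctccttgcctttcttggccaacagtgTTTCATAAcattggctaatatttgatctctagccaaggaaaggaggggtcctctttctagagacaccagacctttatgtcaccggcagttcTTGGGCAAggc
Cxcr1: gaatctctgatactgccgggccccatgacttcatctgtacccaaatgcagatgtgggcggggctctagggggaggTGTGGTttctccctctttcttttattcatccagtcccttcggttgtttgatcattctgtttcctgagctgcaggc
Cxcr2: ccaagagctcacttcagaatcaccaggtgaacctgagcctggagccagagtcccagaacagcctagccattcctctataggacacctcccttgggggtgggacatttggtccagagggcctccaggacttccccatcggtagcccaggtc

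Both strands were searched for the C/EBP-type motif TTNNGNAA, the ETS-type motif AGGAAG, the RUNX-type motif TGTGGT and the TATA box TATAAA, families of sites bound by factors of the myeloid lineage or by the basal machinery. In S100a8 a C/EBP-type match began at position -117 and the TATA box at -30. S100a9 held a C/EBP-type match at -130 and a RUNX-type match at -64, both on the other strand. Ngp had 3 C/EBP-type matches, at -138 and -102 on the other strand and at -11 on its own. Camp had 1 ETS-type match at -69, Cxcr1 had 1 RUNX-type match at -75, and no motif searched matched in the shown bases of Cxcr2. In the 250 bases before the start, the C/EBP-type motif matched in 6 of the 10 genes (S100a8, S100a9, Ngp, Ltf, Retnlg and Mmp8), where 36.8% of 32851 RefSeq promoters held it. The ETS-type motif also matched in 6 of the 10, against 29.5% of promoters, the RUNX-type motif in 3 against 14%, and the TATA box in 2 against 12.4%. No 2 of the matches shown overlapped. In the counts over 250 bases a gene counted if any of its annotated promoters matched, while the percentages are of single promoters. These matches describe letters, and binding was not measured. In the 150 bases shown, 22.7% of all promoters held the C/EBP-type motif, 19.7% the ETS-type, 8.4% the RUNX-type and 7.6% the TATA box.

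S100a8 and S100a9 are direct neighbours on chromosome 3, with 0 protein-coding genes between them, and so are Cxcr1 and Cxcr2 on chromosome 1. Camp, Ngp and Ltf lie in one stretch of chromosome 9, with 8 protein-coding genes between Camp and Ngp and 20 between Ngp and Ltf.

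With LNA-control, bleomycin lungs had lower levels of the S100 pair, of Camp, Ngp, Ctsg and Retnlg and of Cxcr2 than PBS lungs, and higher levels of Cxcr1 and Ltf. Of the 10 genes, 7 fell and 2 rose at a limma adjusted p under 0.05, and Mmp8 did not pass. Over all 20863 genes, 17.5% were called in this comparison, 9.6% higher and 7.9% lower. The median log2 fold change of the 10 genes was -0.77, where that of all genes was 0.003. No array overlapped between these groups for the 9 called genes, 2 higher and 7 lower, where 25.3% of all genes had no overlap, 13.9% higher and 11.4% lower.

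**Figure D1:**
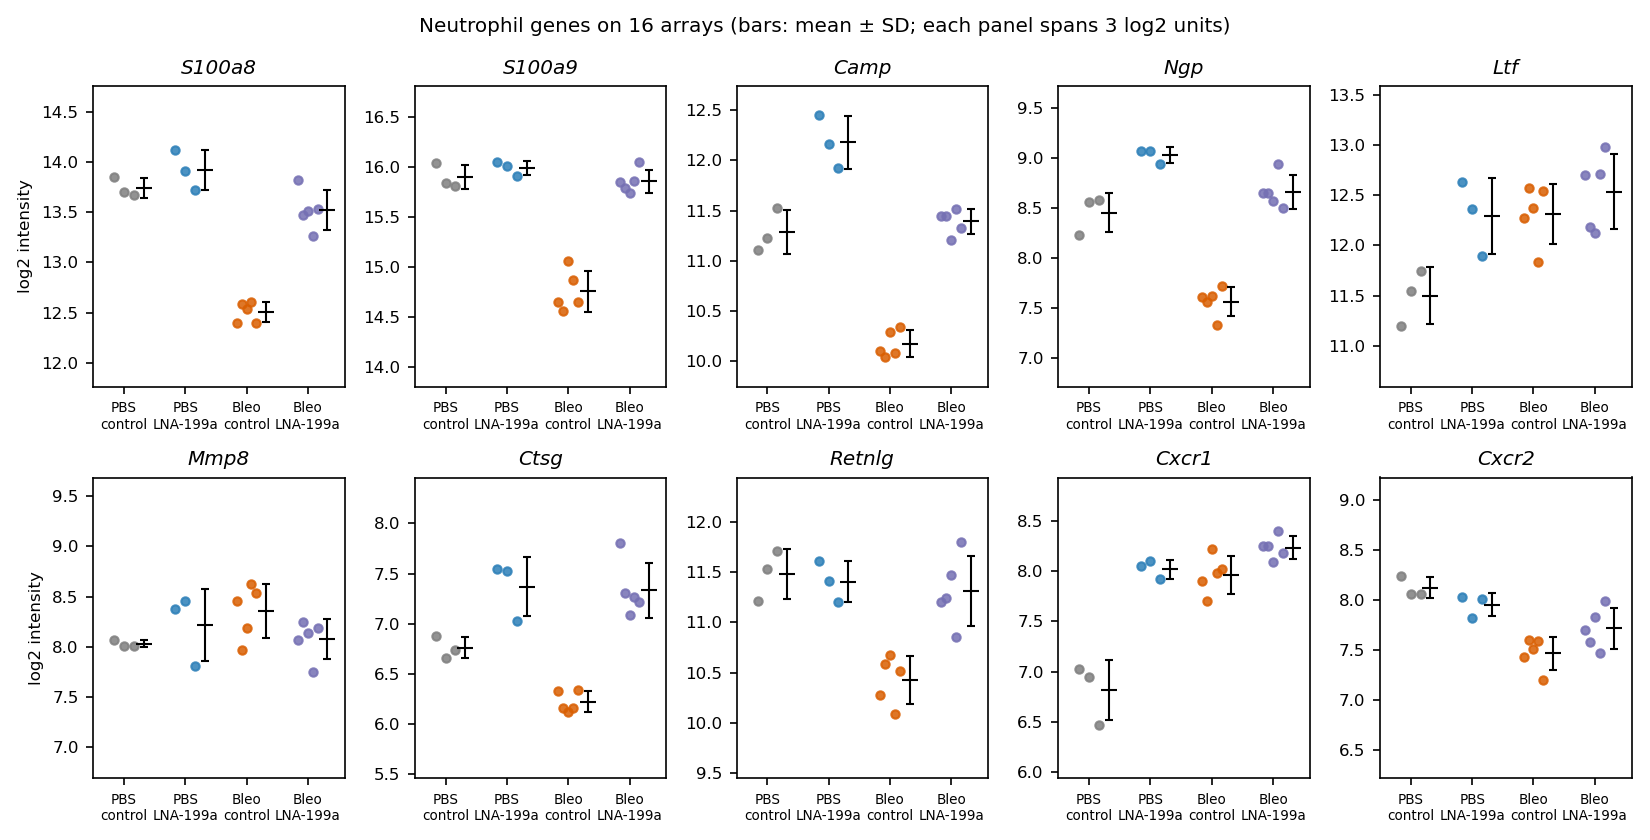
Log2 intensity of the 10 genes on 16 arrays; each point is 1 array, bars give mean ± SD, and the 4 columns of a panel are the 4 groups (3, 3, 5 and 5 arrays, with LNA-199a for LNA-miR-199a-5p). Bleomycin with LNA-control is the lowest group for S100a8, S100a9, Camp, Ngp, Ctsg and Retnlg, while for Cxcr1 the 3 arrays of PBS with LNA-control lie below the other 13.

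For S100a8 the arrays of PBS with LNA-control read 13.85, 13.70 and 13.67 (log2 intensity), and those of bleomycin with LNA-control 12.40, 12.59, 12.54, 12.61 and 12.40. The arrays with LNA-miR-199a-5p read 14.12, 13.91 and 13.72 after PBS and 13.82, 13.47, 13.51, 13.26 and 13.53 after bleomycin. The bleomycin arrays with LNA-control were thus all below the other 11 arrays, whose groups overlapped in order. S100a8 fell by 1.23 ± 0.11 on the log2 scale after bleomycin with LNA-control (a 2.35-fold lower level, limma adjusted p = 2.04e-06). Here and below, the value after ± in a log2 difference is its standard error from limma. In bleomycin lungs S100a8 was higher with LNA-miR-199a-5p than with LNA-control by 1.01 ± 0.10, a 2.01-fold difference (limma adjusted p = 4.78e-06).

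S100a9, the partner of S100a8 in calprotectin, had arrays of 16.04, 15.84 and 15.81 with PBS and LNA-control and of 14.65, 14.56, 15.06, 14.87 and 14.65 with bleomycin and LNA-control. With LNA-miR-199a-5p the values were 16.05, 16.01 and 15.91 after PBS and 15.85, 15.79, 15.74, 15.86 and 16.05 after bleomycin. As for S100a8, only bleomycin with LNA-control stood clear, and the means of the other 3 groups, 15.90, 15.99 and 15.86, lay close together. S100a9 fell by 1.14 ± 0.11 after bleomycin with LNA-control (limma adjusted p = 2.71e-06). Its difference between the LNAs in bleomycin lungs was 1.10 ± 0.09, higher with LNA-miR-199a-5p (limma adjusted p = 9.66e-07).

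Of 15 S100 family members outside the pair, 4 rose, 0 fell and 11 were not called after bleomycin with LNA-control, with a median log2 fold change of 0.13. S100b rose by 1.20 ± 0.17, S100a4, which marks fibroblasts and macrophages as well as other cells, by 0.79 ± 0.14, and S100a11 by 0.63 ± 0.11. In bleomycin lungs 1 of the 15 was higher, 5 were lower and 9 were not called with LNA-miR-199a-5p, S100b by -0.80 ± 0.14 and S100a4 by -0.56 ± 0.12, while S100a16 was higher by 0.57 ± 0.12. Of 6 genes for receptors or co-receptors linked to calprotectin, Cd14 rose by 0.60 ± 0.10 and Cd36 fell by 0.63 ± 0.11 after bleomycin with LNA-control, and Tlr4 and Ager did not pass (0.06 ± 0.06 and 0.05 ± 0.15).

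Camp encodes the precursor of the antimicrobial peptide cathelicidin. Its arrays read 11.11, 11.23 and 11.53 with PBS and LNA-control, and 10.10, 10.04, 10.29, 10.08 and 10.34 with bleomycin and LNA-control. With LNA-miR-199a-5p they read 12.45, 12.16 and 11.92 after PBS and 11.45, 11.45, 11.21, 11.52 and 11.33 after bleomycin. The 4 groups formed 3 separate levels: PBS with LNA-miR-199a-5p was highest, bleomycin with LNA-control lowest, and the other 2 groups overlapped between them. Camp fell by 1.12 ± 0.12 after bleomycin with LNA-control (limma adjusted p = 1.28e-05) and was higher by 1.22 ± 0.11 with LNA-miR-199a-5p in bleomycin lungs (limma adjusted p = 1.48e-06). The dimmer probe of Camp gave -1.08 and 1.14 for these differences.

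Ngp is a protein of specific granules of the cystatin and cathelicidin kind. Its values were 8.23, 8.56 and 8.58 with PBS and LNA-control, and 7.61, 7.56, 7.62, 7.33 and 7.72 with bleomycin and LNA-control. With LNA-miR-199a-5p they were 9.07, 9.07 and 8.94 after PBS and 8.65, 8.65, 8.57, 8.94 and 8.50 after bleomycin. The order of the group means was that of Camp, with bleomycin and LNA-control below all other arrays. Ngp fell by 0.89 ± 0.11 after bleomycin with LNA-control (limma adjusted p = 4.5e-05), and the inhibitor difference in bleomycin lungs was 1.09 ± 0.10 (limma adjusted p = 1.6e-06).

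Ctsg, the gene of cathepsin G, a serine protease of azurophil granules, was the dimmest of the 10. It read 6.88, 6.66 and 6.74 with PBS and LNA-control, and 6.33, 6.16, 6.12, 6.16 and 6.34 with bleomycin and LNA-control. With LNA-miR-199a-5p it read 7.55, 7.53 and 7.03 after PBS and 7.80, 7.31, 7.09, 7.27 and 7.22 after bleomycin. Both groups with LNA-miR-199a-5p lay above both groups with LNA-control, without overlap. Ctsg fell by 0.54 ± 0.14 after bleomycin with LNA-control (limma adjusted p = 0.0151), a call lost without the first (0.074) or the third (0.0518) array of PBS with LNA-control. In bleomycin lungs it was 2.16-fold higher with LNA-miR-199a-5p (1.11 ± 0.12 on the log2 scale, limma adjusted p = 2.09e-05).

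Ltf encodes lactoferrin, an iron-binding protein of specific granules that glands and airway epithelium also secrete. It read 11.20, 11.55 and 11.75 with PBS and LNA-control, and 12.27, 12.57, 12.37, 11.83 and 12.54 with bleomycin and LNA-control. With LNA-miR-199a-5p it read 12.63, 12.36 and 11.89 after PBS and 12.70, 12.18, 12.12, 12.71 and 12.98 after bleomycin. Here PBS with LNA-control was the low group and the other 3 groups overlapped. Ltf rose by 0.82 ± 0.22 after bleomycin with LNA-control (limma adjusted p = 0.0149), and without the first array of PBS with LNA-control the rise was 0.67 and was not called (limma adjusted p = 0.0918). Its inhibitor difference in bleomycin lungs, 0.22 ± 0.19, was not called (95% confidence interval -0.18 to 0.62).

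Mmp8, neutrophil collagenase, had arrays from 7.75 to 8.62 in all, and every group overlapped its neighbours in the order of means. Its log2 fold change was 0.33 after bleomycin with LNA-control, with a 95% confidence interval of -0.01 to 0.67. In bleomycin lungs the inhibitor difference was -0.28, with an interval of -0.57 to 0.02. Neither passed (limma adjusted p = 0.194 and 0.163). With array weights, which give less weight to arrays that fit the groups poorly, Mmp8 was called in both (0.42, limma adjusted p = 0.00724, and -0.33, 0.0482) and in the interaction of bleomycin and inhibitor (-0.65, 0.0144).

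Retnlg, a secreted protein of the resistin family made by rodent neutrophils, read 11.21, 11.53 and 11.71 with PBS and LNA-control, and 10.28, 10.59, 10.67, 10.09 and 10.52 with bleomycin and LNA-control. With LNA-miR-199a-5p it read 11.61, 11.41 and 11.20 after PBS and 11.20, 11.24, 11.47, 10.85 and 11.80 after bleomycin. Bleomycin with LNA-control was again below all other arrays, and the spread was widest among bleomycin arrays with LNA-miR-199a-5p (SD 0.35). Retnlg fell by 1.05 ± 0.18 after bleomycin with LNA-control (limma adjusted p = 0.000763) and was higher by 0.88 ± 0.16 with LNA-miR-199a-5p in bleomycin lungs (limma adjusted p = 0.000974).

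The receptor genes Cxcr1 and Cxcr2, although neighbours, went opposite ways after bleomycin with LNA-control. Cxcr1 read 7.03, 6.95 and 6.47 with PBS and LNA-control, and 7.90, 7.70, 8.22, 7.98 and 8.02 with bleomycin and LNA-control. With LNA-miR-199a-5p it read 8.05, 8.10 and 7.92 after PBS and 8.25, 8.25, 8.09, 8.40 and 8.18 after bleomycin. The 3 arrays of PBS with LNA-control were below all other arrays, and the other 3 groups overlapped from one to the next. Cxcr1 rose by 1.15 ± 0.13 (2.22-fold, limma adjusted p = 1.28e-05).

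Cxcr2 read 8.24, 8.06 and 8.06 with PBS and LNA-control, and 7.43, 7.60, 7.51, 7.59 and 7.20 with bleomycin and LNA-control. With LNA-miR-199a-5p it read 8.03, 7.82 and 8.01 after PBS and 7.70, 7.58, 7.83, 7.47 and 7.99 after bleomycin. PBS with LNA-control was the highest group, and the 2 bleomycin groups overlapped. Cxcr2 fell by 0.65 ± 0.12 after bleomycin with LNA-control (limma adjusted p = 0.000829). In bleomycin lungs neither receptor was called between the LNAs: Cxcr1 differed by 0.27 (95% confidence interval 0.04 to 0.50, limma adjusted p = 0.0783) and Cxcr2 by 0.25 (0.04 to 0.46, limma adjusted p = 0.0813). Cxcr1 was called without the third array of bleomycin with LNA-control (0.34, limma adjusted p = 0.0308) or without the third of PBS with LNA-control (0.27, 0.0374), and Cxcr2 without the array numbered 4 in bleomycin with LNA-miR-199a-5p (0.31, 0.0383).

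Among 10 genes for ligands of these receptors and factors that mobilise neutrophils, 0 rose and 1 fell after bleomycin with LNA-control (limma adjusted p under 0.05). The one that fell was Ppbp, a CXC chemokine of platelet granules, by 1.64 ± 0.14. The epithelial ligand Cxcl5 differed by 0.30 ± 0.49 and Cxcl1 by 0.58 ± 0.33, and neither was called. In bleomycin lungs 3 of the 10 were higher with LNA-miR-199a-5p: Cxcl5 by 1.28 ± 0.42, Ppbp by 0.62 ± 0.12 and Csf2, a growth factor of myeloid cells, by 0.44 ± 0.10.

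For LNA-miR-199a-5p against LNA-control in bleomycin lungs, 6 of the 10 genes were higher, 0 lower and 4 not called, where 24.9% of all genes were called, 13.4% higher and 11.4% lower. The 6 were S100a8, S100a9, Camp, Ngp, Ctsg and Retnlg, and their arrays did not overlap between the groups, as was the case for 13.8% of all genes, 7.3% higher and 6.46% lower. The median of the 10 was 0.95, that of all genes 0.015. This comparison shares the arrays of bleomycin with LNA-control with the bleomycin effect in that LNA, so the values of both are set side by side and their opposite signs are not a separate result.

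**Figure D2:**
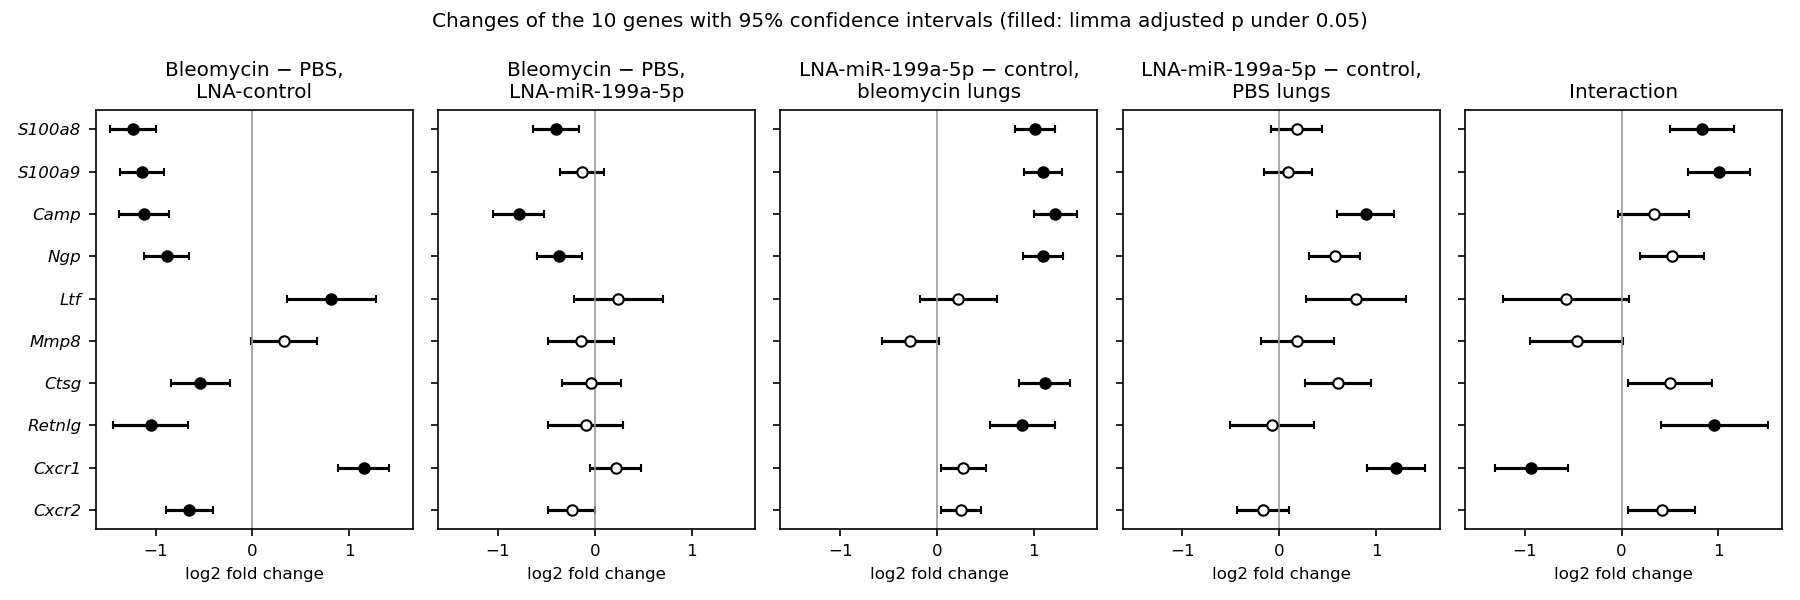
Log2 fold changes of the 10 genes with 95% confidence intervals from limma in 4 comparisons and in the interaction, which is the bleomycin effect with LNA-miR-199a-5p minus that with LNA-control; filled points have an adjusted p under 0.05. The changes run from -1.23 (S100a8) to 1.15 (Cxcr1) after bleomycin with LNA-control, and from -0.79 (Camp) to 0.25 (Ltf) after bleomycin with LNA-miR-199a-5p.

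In animals given LNA-miR-199a-5p, 3 of the 10 genes fell after bleomycin, 0 rose and 7 were not called, where 13.4% of all genes were called, 7.31% higher and 6.04% lower. The 3 were Camp (-0.79 ± 0.12, limma adjusted p = 0.0033), S100a8 (-0.40 ± 0.11, 0.0292) and Ngp (-0.37 ± 0.11, 0.0398). Only Camp had groups without overlap, as 20.7% of all genes did, 10.1% with the lower values after bleomycin. S100a9 differed by -0.13 (95% confidence interval -0.36 to 0.09), Retnlg by -0.09 (-0.48 to 0.29) and Cxcr1 by 0.22 (-0.05 to 0.48), and none of these was called. The calls of S100a8 and Ngp were lost with the RNA integrity number in the model, where 1 of the 10 genes remained called. They were also lost with the replicate block (limma adjusted p = 0.0997 for S100a8 and 0.123 for Ngp) and in a fit of only the arrays compared (0.101 and 0.0764). Without the first array of PBS with LNA-miR-199a-5p both were lost as well (S100a8 -0.30, limma adjusted p = 0.138, and Ngp -0.34, 0.116), as they were without its second array (0.0766 and 0.115) or without the fifth of bleomycin with LNA-miR-199a-5p (0.0511 and 0.0863). S100a8 also lost its call without replicate 4 of that bleomycin group (0.0593). Ngp also lost it without replicate 2 (0.0554) or 3 (0.0692) of that group, without replicate 3 of its PBS counterpart (0.0665) or without replicate 1 of bleomycin with LNA-control (0.0504).

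The difference between the bleomycin effects of the 2 LNAs was tested as an interaction. It was called for S100a9 (1.01 ± 0.15, limma adjusted p = 0.00114), S100a8 (0.83 ± 0.16, 0.00598), Retnlg (0.96 ± 0.26, 0.036) and, with the other sign, Cxcr1 (-0.93 ± 0.18, 0.00592). That was 3 of the 10 genes higher and 1 lower, where 7.01% of all genes were called, 3.07% higher and 3.94% lower. Ngp (0.52, limma adjusted p = 0.055), Ctsg (0.50, 0.15), Cxcr2 (0.42, 0.137) and Camp (0.33, 0.269) did not pass, and the interval for Camp ran from -0.03 to 0.70. Retnlg lost its call when replicate 1 (limma adjusted p = 0.0654), 4 (0.0616) or 5 (0.0541) of bleomycin with LNA-control, replicate 3 of the bleomycin arrays with LNA-miR-199a-5p (0.0543), replicate 2 (0.0902) or 3 (0.106) of PBS with LNA-control, or replicate 2 (0.0705) or 3 (0.0831) of the PBS arrays with LNA-miR-199a-5p was left out. Ngp gained a call without replicate 1 of PBS with LNA-control (0.0336), replicate 3 of bleomycin with LNA-control (0.0486) or replicate 5 of the bleomycin arrays with LNA-miR-199a-5p (0.0463). Retnlg also lost it with the replicate number as a block within the PBS arrays (limma adjusted p = 0.0574).

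In PBS lungs the inhibitor was accompanied by higher Cxcr1 and Camp. Only 10 of all 20863 genes were called there, 0.0479% (0.0336% higher and 0.0144% lower), and 2 of them were among the 10 genes followed. That count was 121 when the third PBS array given LNA-miR-199a-5p was left out, and as low as 2 when other single arrays were, among them the second PBS array given LNA-control. The share of called genes that were higher, 70%, was 93.4% when the former array was left out and 12.5% when the first PBS array given LNA-control was. Cxcr1 was higher by 1.21 ± 0.14, a 2.31-fold difference (limma adjusted p = 0.00356), and had the smallest p of all genes (rank 1). Camp was higher by 0.89 ± 0.14, 1.85-fold (limma adjusted p = 0.0289, rank 5), and its dimmer probe gave 0.96. The arrays of the 2 PBS groups did not overlap for 5 genes that were higher with the inhibitor (Camp, Ngp, Ltf, Cxcr1 and Ctsg) and 1 that was lower (Cxcr2), where 18.1% of all genes had no overlap, 10.2% higher and 7.89% lower. Ngp (0.57, limma adjusted p = 0.154), Ctsg (0.61, 0.334) and Ltf (0.79, 0.426) were not called. S100a8, S100a9 and Retnlg had overlapping groups, with differences of 0.18, 0.09 and -0.08 and intervals of -0.09 to 0.44, -0.16 to 0.34 and -0.51 to 0.36.

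With the replicate numbers as a block, which treats same-numbered arrays as paired, Cxcr1 kept its call (limma adjusted p = 0.0452) and Camp lost it (0.141). With the block within the PBS arrays the values were 0.00181 and 0.0581. In a fit of only the 6 PBS arrays neither was called (limma adjusted p = 0.229 for Cxcr1 and 0.238 for Camp). Camp was also not called without the first (0.80, limma adjusted p = 0.117) or the second (0.86, 0.209) array of PBS with LNA-control, without the first (0.76, 0.0816) or the second (0.90, 0.191) of PBS with LNA-miR-199a-5p, or without the second of bleomycin with LNA-miR-199a-5p (0.89, 0.0529). The third PBS array given LNA-miR-199a-5p stood apart in Krt13, a keratin of squamous epithelium. Krt13 read 5.59 there, against 14.81 and 14.01 on the other arrays of its group and 11.38 or more in the other groups. Ucp1, of brown fat, was also low on it (5.56, against up to 13.86 in its group). Ucp1 was as low on the third PBS array given LNA-control (5.57), so it did not set the inhibitor array apart. When that inhibitor array was left out, the differences were 1.26 for Cxcr1 and 1.02 for Camp, both called. Ctsg was called as well (0.78, limma adjusted p = 0.0352).

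Bleomycin lungs with LNA-miR-199a-5p were also set against PBS lungs with LNA-control, a comparison that shares arrays with those above. Of the 10 genes, 3 were higher and 1 lower, where 14.6% of all genes were called, 8.39% higher and 6.16% lower. These 4 had no overlap between the groups, as 25.8% of all genes did. Cxcr1 was higher by 1.42 ± 0.13 (2.68-fold, limma adjusted p = 1.5e-05), Ltf by 1.04 ± 0.22 (0.00717) and Ctsg by 0.57 ± 0.14 (0.0169), and Cxcr2 was lower by -0.40 ± 0.12 (0.0286). S100a8 (-0.22, 95% confidence interval -0.46 to 0.02), S100a9 (-0.04, -0.27 to 0.18), Camp (0.10, -0.16 to 0.36) and Retnlg (-0.17, -0.56 to 0.22) were not called. Cxcr2 lost its call without replicate 1 (limma adjusted p = 0.117), 2 (0.0638) or 3 (0.0865) of PBS with LNA-control, and without replicate 2 (0.0536) or 4 (0.0614) of the bleomycin group. It was also lost with the replicate block (-0.39, limma adjusted p = 0.11) and in a fit of only the arrays compared (0.0508). Ctsg lost it without the second (0.0697) or the third (0.0798) array of PBS with LNA-control.

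**Figure D3:**
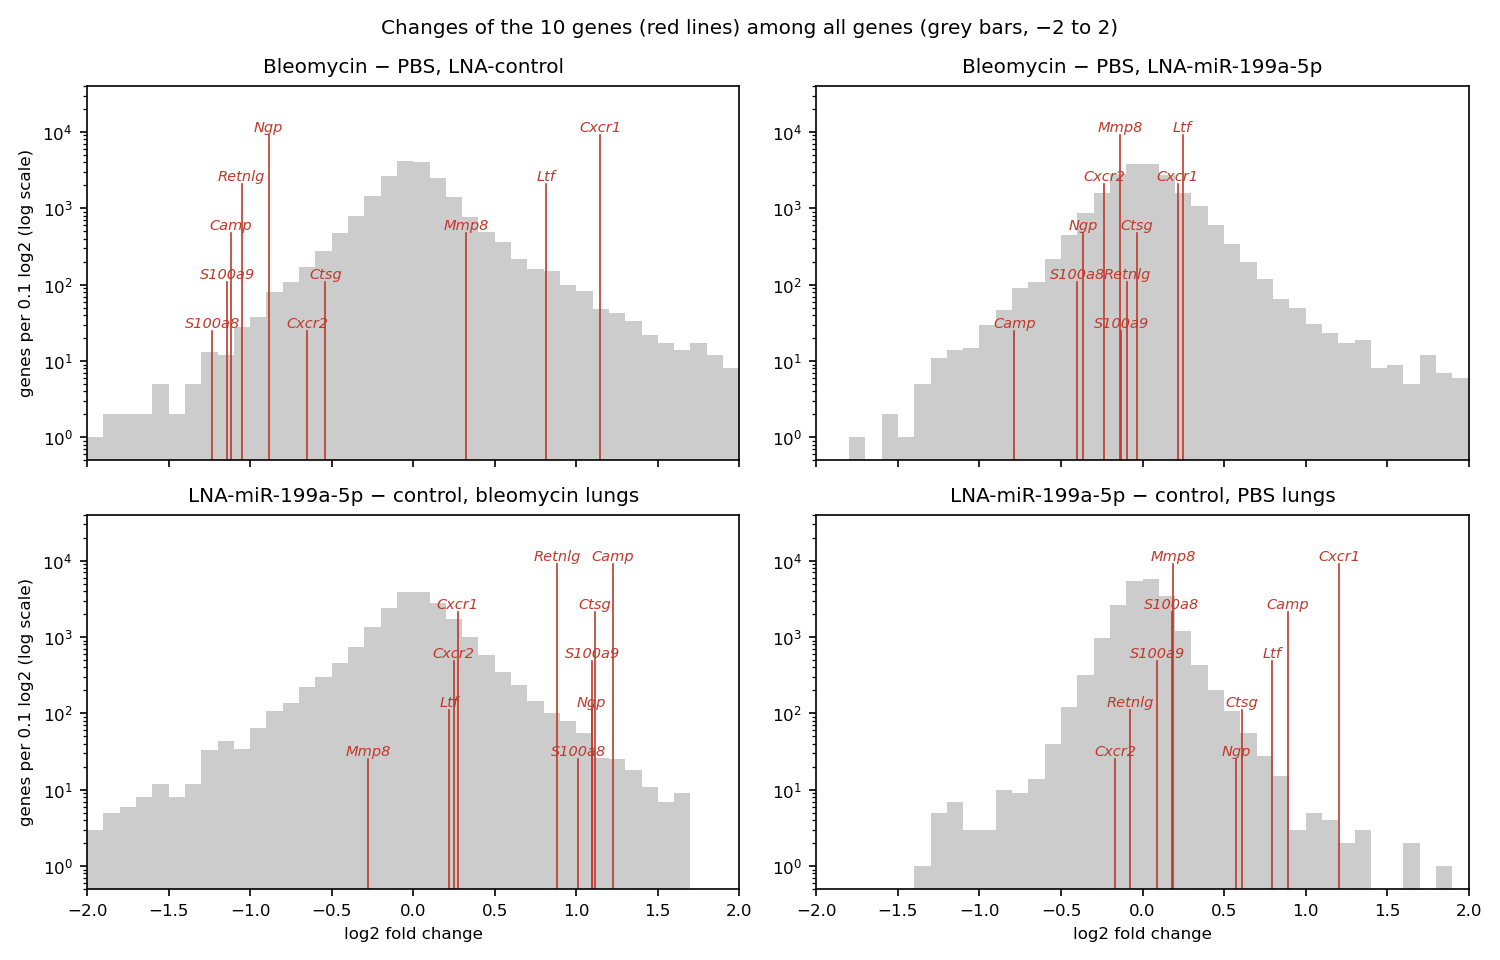
Distribution of log2 fold changes of all 20863 genes (grey bars, number of genes per bin on a log axis, drawn from -2 to 2) with the 10 genes marked by red lines, in 4 comparisons; the height of a red line has no meaning. The medians of the 10 genes are -0.77, -0.135, 0.95 and 0.38, against 0.003, 0.008, 0.015 and 0.014 for all genes.

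The 10 genes were checked against other genes of neutrophils. Of 21 further identity genes measured, 5 rose and 5 fell after bleomycin with LNA-control (limma), with a median of 0.06. Stfa2, a stefin, fell by 1.03 ± 0.15, Trem3, a receptor of the TREM family, by 0.81 ± 0.11 and the Mas-related receptor gene Mrgpra2b by 0.52 ± 0.11, while the lectin receptor gene Clec4d rose by 1.06 ± 0.09 and Lrg1 by 1.56 ± 0.18. Clec4d and Lrg1 are also made outside neutrophils, by macrophages and by endothelium or epithelium respectively. In bleomycin lungs 9 of the 21 were higher and 4 lower with LNA-miR-199a-5p, among them Trem3 at 0.76 ± 0.10, Mrgpra2b at 0.65 ± 0.09 and Stfa2 at 0.50 ± 0.13 on the one side, and Clec4d at -1.07 ± 0.08 and Lrg1 at -0.92 ± 0.16 on the other.

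Of 20 further granule genes, 7 rose and 2 fell after bleomycin with LNA-control. Those that fell were Mpo, myeloperoxidase of azurophil granules (-0.87 ± 0.15), and Mmp9, gelatinase B (-0.78 ± 0.11). Lcn2, a siderophore-binding protein that injured epithelium also makes, rose by 1.99 ± 0.20, and Itgb2, the integrin chain shared by leukocytes, by 0.99 ± 0.11. In bleomycin lungs 6 of the 20 were higher and 5 lower with LNA-miR-199a-5p: Mpo was higher by 1.25 ± 0.13 and Mmp9 by 0.99 ± 0.10, and Lcn2 was lower by -0.86 ± 0.18. The list of 9 neutrophil precursor genes shares Mpo, Elane, Prtn3, Ms4a3 and Fcnb with the granule genes and holds Ctsg. Its counts are therefore not separate from those above. Of the 9, 3 fell after bleomycin with LNA-control and 6 were higher with LNA-miR-199a-5p in bleomycin lungs. Cebpe, the transcription factor of specific-granule genes, was -0.48 ± 0.13 and 0.83 ± 0.11 in these comparisons.

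Of 5 genes of the phagocyte NADPH oxidase, which neutrophils share with macrophages, 4 rose and 0 fell after bleomycin with LNA-control, Cybb by 0.94 ± 0.17. Of 10 genes for inhibitors of granule proteases, 3 rose, among them Timp1, an inhibitor of metalloproteinases, by 2.57 ± 0.34 and Serpina3n by 1.31 ± 0.23. In bleomycin lungs Timp1 was lower by -1.76 ± 0.29 and Serpina3n by -1.06 ± 0.20 with LNA-miR-199a-5p.

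Markers of other blood and lung cells moved in the same comparisons. After bleomycin with LNA-control, 7 of 7 platelet genes fell, among them Ppbp and Pf4 (-1.22 ± 0.11), 6 of 7 natural killer cell genes (Gzma -0.97 ± 0.14), 3 of 8 genes of patrolling monocytes, 3 of 6 of eosinophils and 2 of 5 of B cells. So did 3 of 6 heart genes and 1 of 8 mast cell genes, and no gene of these lists rose (limma). The platelet list shares Ppbp with the receptor ligands, and the patrolling monocyte list shares Pglyrp1 with the neutrophil identity genes. In bleomycin lungs 6 of the 7 platelet genes, 7 of the 7 natural killer cell genes, 6 of the 8 patrolling monocyte genes, 4 of the 6 eosinophil genes, 4 of 5 B cell genes, 4 of 8 mast cell genes and 6 of 6 heart genes were higher with LNA-miR-199a-5p, and none was lower. The macrophage list went the other way, with 9 of 10 genes higher after bleomycin with LNA-control and 9 of 10 lower with LNA-miR-199a-5p in bleomycin lungs. Other lists had few calls or calls in both directions. After bleomycin with LNA-control 0 of 6 T cell and 0 of 6 red cell genes were called. The mean of the T cell genes ran from 9.02 to 10.52 over the arrays of bleomycin with LNA-control, against 9.20 to 9.25 with PBS and LNA-control. Some arrays of that bleomycin group carried thymocyte transcripts (below), so the missing calls do not show that T cell genes stayed level. In bleomycin lungs 0 of the 6 T cell genes were called, and 2 of the 6 red cell genes were higher with LNA-miR-199a-5p. Of 7 classical monocyte genes, 2 were higher and 2 lower in the former comparison, and 2 higher and 3 lower in the latter.

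On the log2 scale, the summed intensity of the platelet genes was 15.22 to 15.28 over the arrays of PBS with LNA-control, 15.20 to 15.29 with PBS and LNA-miR-199a-5p, 13.76 to 14.01 with bleomycin and LNA-control, and 14.25 to 14.88 with bleomycin and LNA-miR-199a-5p. The natural killer cell sum was 13.42 to 13.76, 13.08 to 13.34, 12.40 to 13.09 and 13.28 to 13.61 in the same order of groups. The macrophage sum was 13.61 to 13.83, 13.88 to 14.24, 15.41 to 16.10 and 14.33 to 14.56. Mast cells also make Ctsg, and their sum was 12.78 to 13.07, 12.55 to 12.73, 12.42 to 12.57 and 12.85 to 13.30. The patrolling monocyte sum was 16.00 to 16.02, 15.88 to 16.02, 15.52 to 16.01 and 16.08 to 16.31. Thus the platelet sum, like S100a8, S100a9 and Retnlg, was lowest with bleomycin and LNA-control, although for platelets both bleomycin groups lay below both PBS groups. The part of these cells in the values of the 10 genes was not tested.

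**Figure D4:**
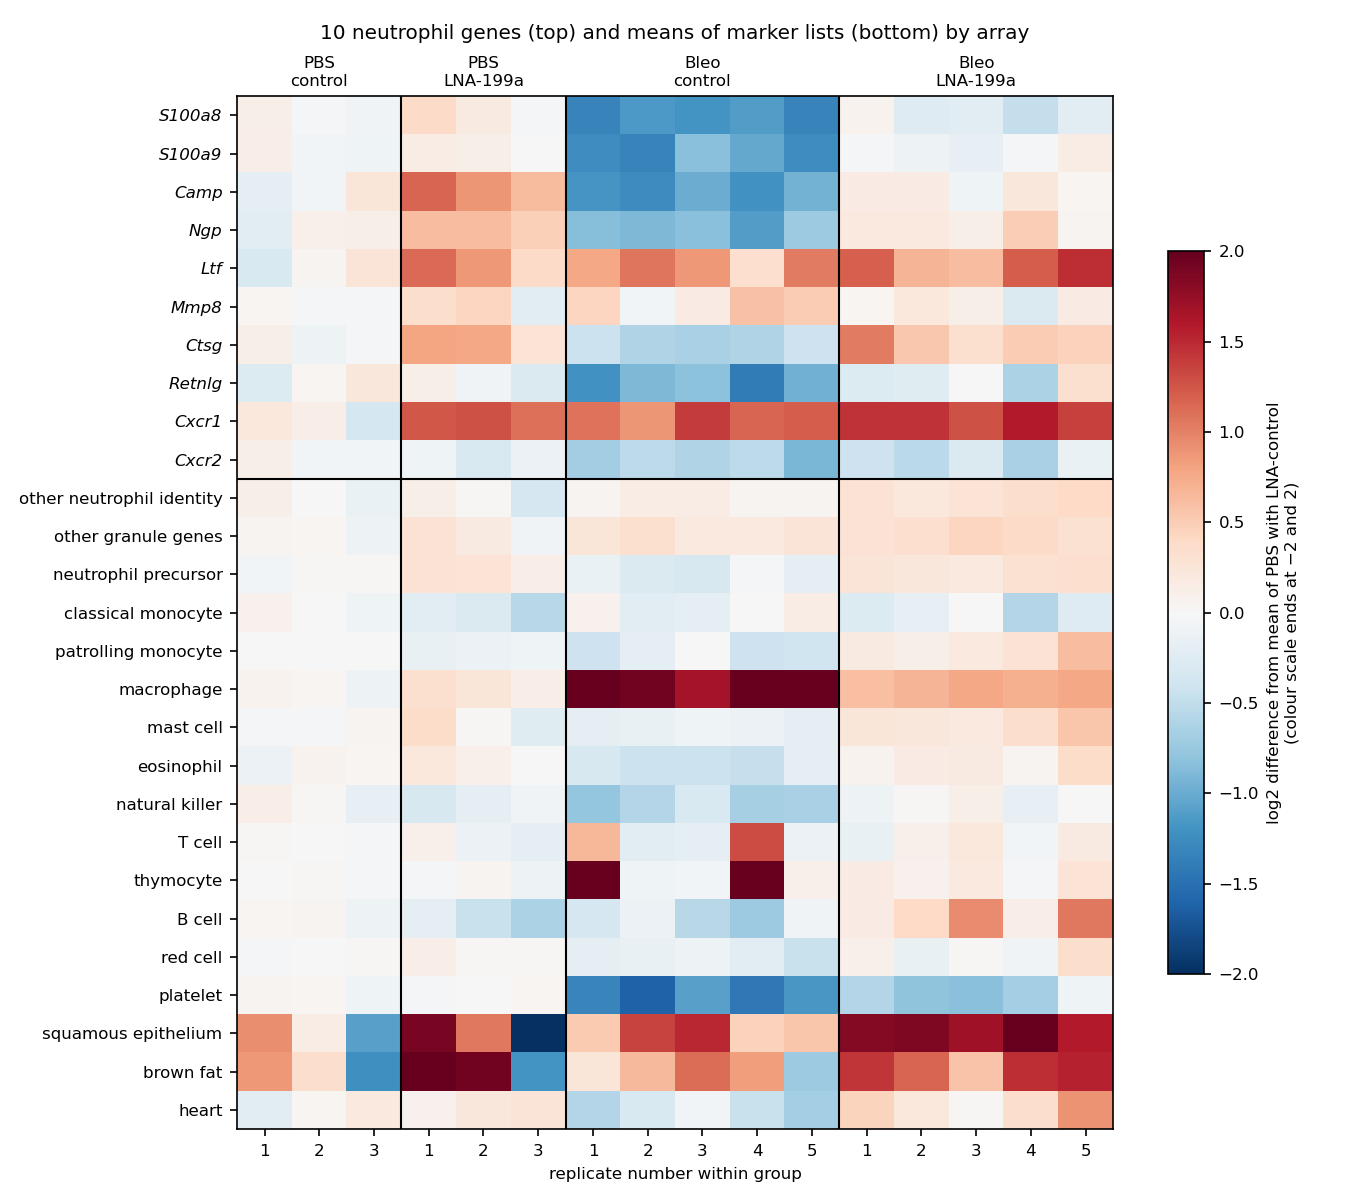
Log2 difference of each array from the mean of PBS with LNA-control, for the 10 genes (upper rows) and for the mean of each marker list (lower rows); columns are the 16 arrays by group and replicate number, and colours end at -2 and 2. The rows of platelet and natural killer cell genes are low in bleomycin with LNA-control, as are S100a8, S100a9, Camp, Ngp and Retnlg, and the thymocyte row is high on arrays 1 and 4 of that group.

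Replicates 1 and 4 of bleomycin with LNA-control carried thymocyte transcripts, with Rag1, a recombinase of developing lymphocytes, at 10.03 and 10.88 against 5.43 to 6.10 on the other 14 arrays. Without both arrays S100a8, S100a9, Camp, Ngp, Retnlg and Cxcr2 still fell after bleomycin with LNA-control and Cxcr1 and Ltf still rose, with Camp at -1.07 and Retnlg at -0.89, while Ctsg was at -0.56 and missed the threshold (limma adjusted p = 0.0501). Without them the Retnlg interaction (0.80, limma adjusted p = 0.125) and Camp in PBS lungs (0.0715) were not called. The RNA integrity number averaged 8.33 in each PBS group, 8.2 for LNA-control after bleomycin and 9 for LNA-miR-199a-5p after bleomycin. With that number in the model, the 6 genes higher with LNA-miR-199a-5p in bleomycin lungs kept their call, while the Retnlg interaction was not called (0.95, limma adjusted p = 0.0759).

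Outside the 10 genes, likeness was measured by Pearson's r over the 16 arrays of deviations from the group means, for 10426 genes brighter than the median. The genes most like the mean of S100a8, S100a9, Cxcr2 and Retnlg were Klf3 (r = 0.86), Ppp1r3c (0.85), Hcst (0.81), Alas2 (0.80), Dennd1c (0.79), Pdk2 (0.79), Ppbp (0.79), Czib (0.78), Zfp764 (0.78) and Lst1 (0.77). For S100a8 alone they were Ehf (0.80), Ptgr2 (0.78), Uqcrb (0.77), Hadhb (0.76) and Tcf20 (0.76). These are the highest of many values over few arrays that share a labelling and a scaling, and are given as a description. Alas2 is the haem synthesis enzyme of red cell precursors and Ppbp the platelet chemokine named above.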

How the data were processed

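The 16 arrays hold log2 intensities that the authors deposited after quantile normalization, and once sorted the arrays differed by at most 0.0974 at any rank. The submitters' processing notes name limma, with no version, and background correction and filters are not given in the sources used here. Of 62976 spots, 31465 were named in the platform's annotation. Symbols were updated through RefSeq, with 29050 probes matched and 2933 symbols changed, and the probe with the highest mean was kept for the 6086 genes with several, which left 20863 genes. The 4 group means were fitted over all 16 arrays in limma 3.58.1 under R 4.3.3 (lmFit, then eBayes) with no filter, and p-values were adjusted by Benjamini-Hochberg over all genes of a comparison, two-sided. The code was tested on simulated data. Arrays give no depth, so their number limits the precision. No array repeated another, with a smallest median absolute difference of 0.0942.

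All 10 genes are named in every comparison. Of each further list the counts cover all measured genes, and the names come from at most 4 genes of lowest p for bleomycin with LNA-control and at most 3 for the inhibitor among bleomycin arrays. Members and lists were chosen with earlier results of these data known. A list is described by its counts and median, with no test. Same-numbered arrays of the PBS groups deviated together (correlations of deviations 0.411, 0.108 and 0.497), as a hint from the data and not from the labels. Those of PBS and bleomycin with LNA-miR-199a-5p gave 0.116, 0.324 and 0.043. The other pairs of groups were mostly negative. The bleomycin groups gave 0.027, -0.373, -0.372, -0.171 and -0.102, and PBS and bleomycin with LNA-control -0.007, -0.038 and -0.102. Bleomycin with LNA-control against PBS with LNA-miR-199a-5p gave -0.113, -0.157 and -0.195. Bleomycin with LNA-miR-199a-5p against PBS with LNA-control gave -0.033, -0.028 and 0.011. Differently numbered arrays were not compared, so a pairing by number is not shown. Other scalings, probes, filters, weights, covariates and left-out arrays were tried.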

Additional observations from a re-analysis of the deposited data

Results flagged for a closer look

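The bleomycin effect differed between the LNAs by the limma interaction for 4 of the 10 genes, each with a Benjamini-Hochberg adjusted p over all genes. In this test 7.01% of all genes were called, 3.07% higher and 3.94% lower. The effect with LNA-miR-199a-5p minus that with LNA-control was 1.01 for S100a9 (adjusted p = 0.00114), 0.83 for S100a8 (adjusted p = 0.00598), 0.96 for Retnlg (adjusted p = 0.036) and -0.93 for Cxcr1 (adjusted p = 0.00592). S100a8, S100a9 and Retnlg fell by over 1 on the log2 scale with LNA-control. Cxcr1 rose by 1.15 there and differed by 0.22 with LNA-miR-199a-5p. In the 20 groups of 5 arrays that could be searched for a single array far from the others, no array passed Dixon's criterion (0.71 of the range). The groups of 3 arrays were not searched.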

How the results depend on the processing

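The number of arrays limits these results. Of the 10 genes, 9 were called after bleomycin with LNA-control, 10 with array weights and 5 among genes brighter than the median, a filter that drops Ngp, Cxcr1, Cxcr2, Mmp8 and Ctsg. After bleomycin with LNA-miR-199a-5p 3 were called, and 1 with the replicate block, with the RNA integrity number as a covariate or in a fit of only the arrays compared. For the inhibitor in PBS lungs 2 were called, 1 with that filter, with the replicate block, with the block within the PBS arrays (added after seeing the data) or without replicates 1 and 4 of bleomycin with LNA-control, 5 with array weights and 0 in a limma fit of only the arrays compared, where 0 of all genes were called and 2317 had an unadjusted p under 0.05. For the interaction 4 were called, and 7 with array weights. For bleomycin with LNA-miR-199a-5p against PBS with LNA-control 4 were called, and 1 with the filter. The 6 called for the inhibitor in bleomycin lungs became 4 to 8. Array weights raised the calls over all genes as well. These went from 3651 to 6713 after bleomycin with LNA-control and from 5188 to 5963 for the inhibitor in bleomycin lungs. For the inhibitor in PBS lungs they went from 10 to 394, and for the interaction from 1462 to 3862.

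Leaving out 1 array at a time gave 7 to 9, 1 to 3, 6 to 7, 1 to 3, 3 to 5 and 2 to 4 of the 10 genes for bleomycin with LNA-control, bleomycin with LNA-miR-199a-5p, the inhibitor in bleomycin lungs, the inhibitor in PBS lungs, the interaction and the last comparison. With the replicate block, Camp was the only one of the 10 genes whose call changed for the inhibitor in PBS lungs, and Ltf after bleomycin with LNA-control had an adjusted p of 0.0545.

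Signs turned only for differences that were not called: Ctsg after bleomycin with LNA-miR-199a-5p (0.064 with the RNA integrity number, -0.207 to 0.054 without single arrays), Retnlg there (-0.215 to 0.023) and in PBS lungs (-0.212 to 0.036) without single arrays, and in the last comparison S100a9 without single arrays (-0.088 to 0.029) and Mmp8 with median-centred arrays (-0.027). Median centring moved the share of called genes that were higher from 54.9% to 42% after bleomycin with LNA-control, from 54.7% to 36.4% after bleomycin with LNA-miR-199a-5p, from 54% to 45.1% for the inhibitor in bleomycin lungs (47.2% with cyclic loess) and from 57.7% to 31.7% in the last comparison. For the inhibitor in PBS lungs cyclic loess moved it from 70% to 53.3%. Over all genes, 3651 were called after bleomycin with LNA-control, 2258 to 6713 across the settings tried. For bleomycin with LNA-miR-199a-5p these were 2786 and 271 to 3534, for the inhibitor in bleomycin lungs 5188 and 2356 to 5963, for the inhibitor in PBS lungs 10 and 0 to 394, for the interaction 1462 and 525 to 3862, and for the last comparison 3037 and 618 to 4681.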
